A study of Acomys cahirinus and Mus musculus with 6 samples.

Results

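The genes described here are 45 genes of G2 and mitosis, given as a fixed list of symbols and matched by symbol in the deposited count table. All 45 were found among its 20381 genes. The rule that lists them uses no measured value, but the list was chosen with earlier results of these data known. They were followed across the 17 cell types of the authors' annotation and across 6 single-cell RNA libraries of healing ear punch wounds in ear pinna skin. Of these, 4 came from the spiny mouse and 2 from the laboratory mouse, and every treatment and every control was 1 library. The spiny mouse (Acomys cahirinus, wild-type) is a rodent known for regrowing tissue after such a wound. Its libraries came from animals injected from day 12 to day 15 with the vehicle DMSO, with an ERK inhibitor, with an ErbB2 inhibitor or with an inhibitor of FGFR1/2/3, called the FGFR inhibitor below. The laboratory mice were of the CD1 strain and received beads on day 10 at the wound, carrying PBS alone or the recombinant proteins FGF2 and NRG1. FGF2 acts through FGF receptors and NRG1 through the ErbB family, and both kinds of receptor can activate the kinase ERK. How many animals a library pools was not given in the sources used here.

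Cells that divide copy their DNA in S phase, pass through G2, and then condense their chromosomes, attach them to a spindle, pull them apart and split. The genes of this list are switched on late in that sequence, and many of their proteins are destroyed as mitosis ends, so their RNA is a common mark of cells in or close to division. In skin the dividing cells of the epidermis sit in its basal layer, and the suprabasal cells above them have left the cycle. Wounding is known to draw basal keratinocytes, fibroblasts and vessel cells into division.

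Each library held between 631 cells (ERK inhibitor) and 15363 cells (DMSO), of 39577 in all, and between 7429819 and 70058081 UMIs, the molecules counted. The median cell had 3125 UMIs with DMSO, 6915 with the ERK inhibitor, 4153 with the ErbB2 inhibitor, 5162.5 with the FGFR inhibitor, 3852 with PBS beads and 3904 with FGF2/NRG1 beads. Since each group was 1 library, no test was possible, a difference is one between libraries, and the 95% intervals below cover counting error only. Of the cell barcodes, 184 occurred in more than 1 library, among 39393 distinct ones. All reads were counted under mouse gene symbols, so a spiny mouse value is what was counted under a mouse name, and levels are compared only within a species.

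The 45 genes are protein coding, and 7 roles were told apart: chromosome structure, cyclins and kinases, centromere and kinetochore, the spindle checkpoint, mitotic exit, the spindle with its motors, and the central spindle with cytokinesis. On the mouse build GRCm38 (GENCODE vM21, whole gene spans), Mki67 lies on chromosome 7 from 135689784 to 135716361, Top2a on chromosome 11 from 98992943 to 99024189, Ube2c on chromosome 2 from 164769898 to 164778822, and Cenpa on chromosome 5 from 30666777 to 30674830. The DMSO library held 150292 UMIs of the 45 genes, and the ERK inhibitor library held 9167. Top2a alone gave 8.90% of these UMIs over the spiny mouse libraries, and Smc4 gave 7.27% over the mouse libraries. Tacc3, a spindle protein, had 0 UMIs in all 4 spiny mouse libraries, which allows up to 3 UMIs in each, and Cdca8, a subunit of the chromosomal passenger complex, had 4 UMIs, all with DMSO. Both were well counted in the mouse, with 954 and 2491 UMIs. The other 43 genes were read in both species.

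The annotated cycling basal keratinocytes of the interfollicular epidermis (IFE, the skin between hair follicles) carried the genes at the highest level in every library. Their summed level was 10845 CPM (counts of the genes scaled to 1000000 UMIs of the type) with DMSO, 10319 with the ERK inhibitor, 10030 with the ErbB2 inhibitor, 11192 with the FGFR inhibitor, 11514 with PBS and 11128 with FGF2/NRG1. These are 27.8, 76.4, 35.9, 61.5, 57.0 and 69.1 times the lowest type of the same library. The clusters behind that name were formed on the expression of these genes among others: of the 10 leading genes of its clusters 19, 22 and 24, 10, 9 and 8 are members of the list. The level is therefore a description, and the number of annotated cycling cells is not compared between libraries. The type held a median of 66.1% of a member's UMIs with DMSO, 88.9% with the ERK inhibitor, 65.3% with the ErbB2 inhibitor, 78.5% with the FGFR inhibitor, 80.9% with PBS and 57.9% with FGF2/NRG1, where the median gene of the whole table had between 6.36% and 12.3% there.

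Outside the cycling keratinocytes the levels were spread over an order of magnitude, and the order of the types was not the same in every library. With DMSO the next types were cluster 38 at 2325 CPM (2132 to 2530), the cells named Unknown at 2100 and T cells at 2007, whose intervals overlap in that order. Cluster 38 is annotated as dermal sheath and papilla but was led by Acta2, Tagln and Rgs5, genes of the muscle-like cells around vessels, so it is given by its number. Fibroblasts (1585 CPM), chondrocytes (1451), endothelium (1354) and the non-cycling basal keratinocytes (1310) followed with overlapping intervals, and suprabasal keratinocytes (477) and the inner root sheath of the hair (390) were lowest. In the ErbB2 inhibitor library cluster 38 (2479) and T cells (2432) came next after the cycling cells, and with the FGFR inhibitor cluster 38 (2886), fibroblasts (1523) and resident macrophages (1447). With the ERK inhibitor 8 types had at least 30 cells, and resident macrophages (487) came second, with basal keratinocytes (367) after them. In the PBS library the second type was cluster 38 (1202), in the FGF2/NRG1 library the fibroblasts (2112). The plot of summed levels by type shows both the gap under the cycling keratinocytes and the wide lead of the DMSO library in most of the other types.

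**Figure D1:**
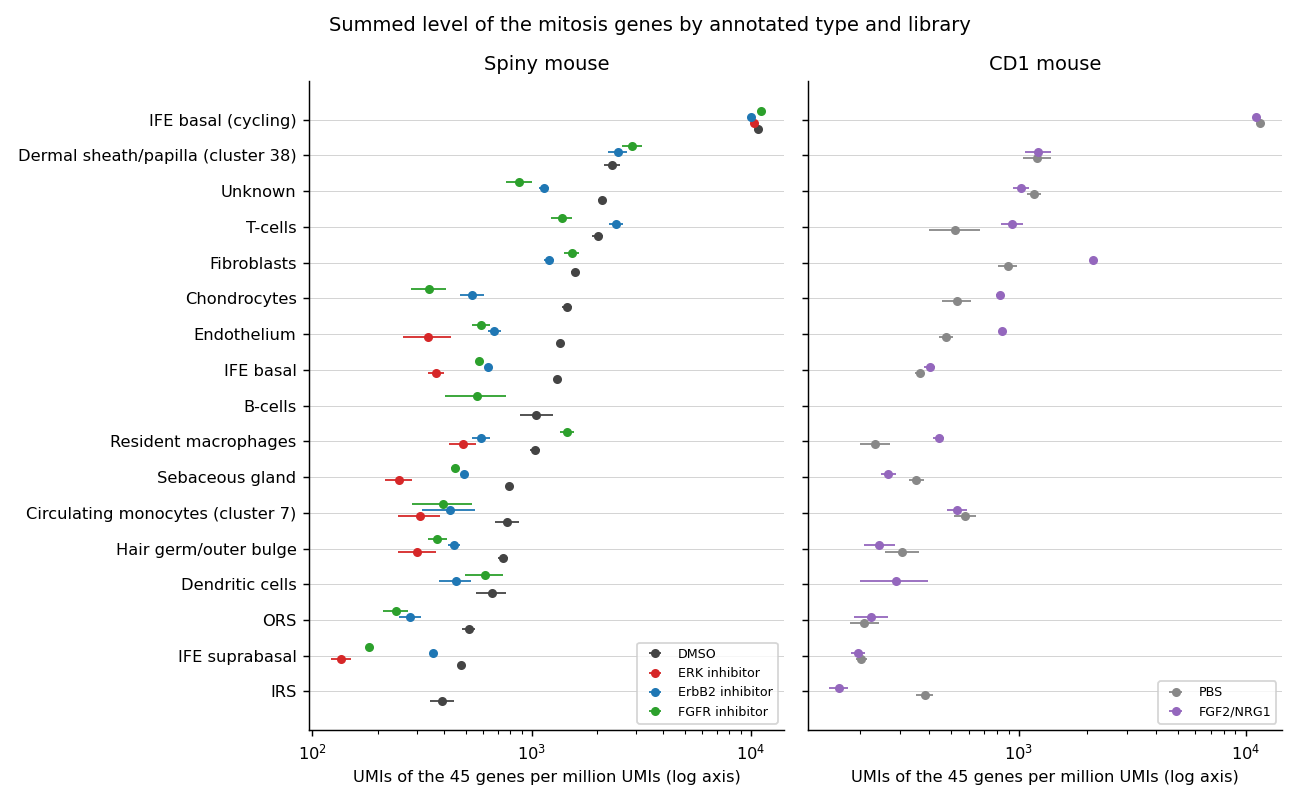
Summed level of the 45 mitosis genes (CPM, log axis) in each annotated type with at least 30 cells, spiny mouse libraries on the left and mouse libraries on the right. Points are libraries and bars are exact Poisson 95% intervals, which cover counting error only; the cycling keratinocytes lie between 10030 and 11514 CPM in all 6 libraries.

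The DMSO library stood above the other spiny mouse libraries also in a cluster led by genes of cells that do not divide. Cluster 7, annotated as circulating monocytes, was led by S100a9, S100a8 and Csf3r, genes of neutrophils, which are short-lived and have left the cycle. Its level of the 45 genes was 772 CPM (681 to 873) with DMSO, 308 (247 to 381) with the ERK inhibitor, 423 (316 to 555) with the ErbB2 inhibitor and 395 (284 to 533) with the FGFR inhibitor. The interval of the DMSO library does not overlap the others. In the mouse it was 580 (517 to 647) with PBS and 534 (482 to 591) with FGF2/NRG1. Keratinocyte marker genes made up 4.62% of the UMIs of cluster 7 with DMSO, 0.136% with the ERK inhibitor, 4.30% with the ErbB2 inhibitor, 2.55% with the FGFR inhibitor, 0.829% with PBS and 0.728% with FGF2/NRG1. Neutrophil marker genes made up 3.16%, 28.4%, 5.79%, 5.86%, 7.45% and 7.49% in the same order, so the make-up of cluster 7 differed between libraries. The part of RNA from other cells in the results below was not tested.

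To read dividing cells one by one, each cell was thinned to 1000 UMIs and shallower cells were left out. The keratinocytes counted here are all annotated interfollicular ones, basal, cycling and suprabasal together, without 4 of their 22 clusters. The 10 leading genes of each of those 4 held more markers of another type than of their own. Clusters 44 and 46 were left out on 1 such gene each, and cluster 44 is annotated as cycling. Those 4 clusters held 7.0% of the annotated cells with DMSO, 4.14% with the ERK inhibitor, 15.8% with the ErbB2 inhibitor, 6.55% with the FGFR inhibitor, 2.79% with PBS and 4.69% with FGF2/NRG1. UMIs of at least 3 members were found in 23.0% (22.1 to 24.0, exact Clopper-Pearson) of 7791 keratinocytes with DMSO, in 10.5% (7.11 to 14.9) of 266 with the ERK inhibitor, in 10.3% (9.45 to 11.2) of 4666 with the ErbB2 inhibitor and in 11.3% (10.1 to 12.7) of 2337 with the FGFR inhibitor. All 3 inhibitor libraries thus lay below DMSO with no overlap of intervals, and their own intervals overlap one another. In the mouse the share was 15.3% (13.2 to 17.7) of 1011 cells with PBS and 17.4% (14.98 to 19.98) of 921 with FGF2/NRG1, with overlapping intervals. In cluster 7, read as background, the share was 5.36% with DMSO, 1.82% with the ERK inhibitor, 2.63% with the ErbB2 inhibitor, 0 of 67 cells with the FGFR inhibitor (0 to 5.36), 2.33% with PBS and 1.64% with FGF2/NRG1. Median depth before thinning was 1392 UMIs in cluster 7 and 4370 in keratinocytes with DMSO, and between 1163 and 5167 against between 6476 and 15699.5 in the other libraries.

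The difference between libraries was smaller among cells with many of the genes. At least 10 members were found in 6.67% (6.13 to 7.25) of keratinocytes with DMSO, 5.64% (3.19 to 9.13) with the ERK inhibitor, 3.51% (3.00 to 4.08) with the ErbB2 inhibitor and 4.84% (4.001 to 5.78) with the FGFR inhibitor. The ERK inhibitor interval, from 15 such cells, includes the DMSO value, and the other inhibitor libraries lie below it. The values with PBS and FGF2/NRG1 were 8.41% (6.77 to 10.3) and 8.69% (6.95 to 10.7). No cell of cluster 7 had 10 members in any library. Without thinning, at least 3 members were found in 50.0% of keratinocytes with DMSO, 45.7% with the ERK inhibitor, 31.2% with the ErbB2 inhibitor, 35.6% with the FGFR inhibitor, 46.9% with PBS and 39.9% with FGF2/NRG1, so that in the mouse the order of the libraries depends on the thinning.

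**Figure D2:**
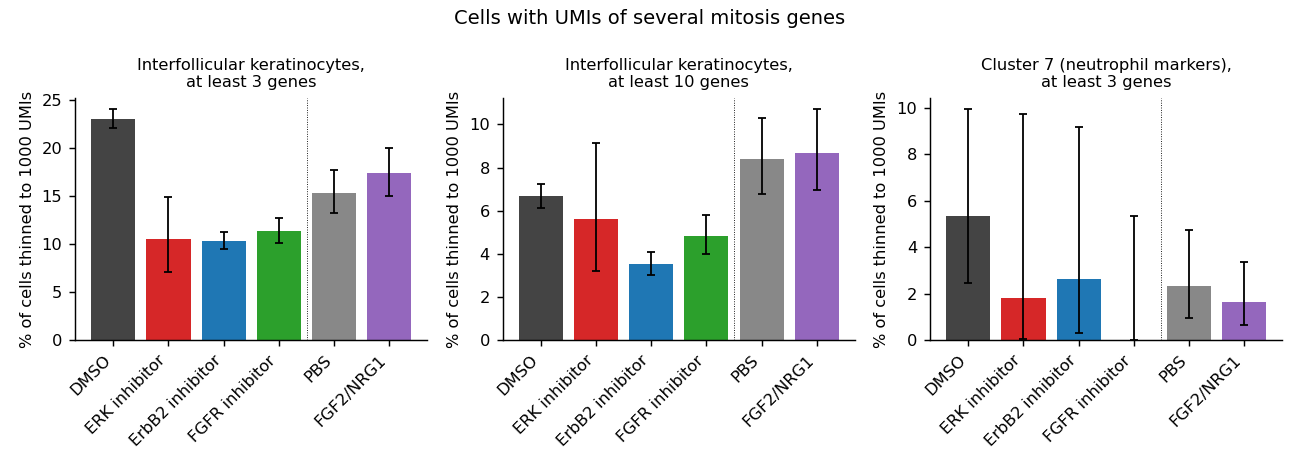
Share of cells (%, each thinned to 1000 UMIs) with UMIs of at least 3 or at least 10 of the 45 genes among interfollicular keratinocytes, and of at least 3 in cluster 7, by library. Bars start at 0, error bars are exact 95% binomial intervals over cells, and the dotted line parts spiny mouse from mouse libraries; the share with at least 3 genes is 23.0% with DMSO and between 10.3% and 11.3% in the inhibitor libraries.

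Among keratinocytes outside the cycling type, the basal cells with at least 3 members made up 12.5% with DMSO, 3.04% with the ErbB2 inhibitor and 3.09% with the FGFR inhibitor, and 1 of 103 cells with the ERK inhibitor. The DMSO share lies above that of cluster 7 in the same library. The ErbB2 and FGFR inhibitor shares are also higher than those of cluster 7, which rest on 76 and 67 cells. Neither of these shares lies above the exact interval of cluster 7 in its own library, so neither is placed above background. The ERK inhibitor share, from 1 cell, cannot be placed against cluster 7, which had 55 cells in that library. In the mouse basal cells 1.33% with PBS and 1.53% with FGF2/NRG1 had at least 3, neither above cluster 7 and both read as background. Suprabasal keratinocytes were at 3.20% with DMSO, 0.694% with the ERK inhibitor, 3.78% with the ErbB2 inhibitor, 0.587% with the FGFR inhibitor, 0.636% with PBS and 0.454% with FGF2/NRG1, none of them above the interval of cluster 7. Within keratinocytes the genes' UMIs were least gathered in the DMSO library: the 5% of keratinocytes with most of them held 37.2% of the thinned UMIs with DMSO, 63.3% with the ERK inhibitor, 58.8% with the ErbB2 inhibitor, 58.7% with the FGFR inhibitor, 46.2% with PBS and 45.3% with FGF2/NRG1.

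A few members departed from the common pattern by type. Those described are Tpx2 and Smc4, which the rule for named genes covers, and Ttk and Kif23, which were chosen after their values by type were seen. Tpx2, which builds spindle microtubules around chromosomes, lies on chromosome 2 from 152847964 to 152895321. In spiny mouse suprabasal keratinocytes, which hold few dividing cells, it read 29.4 CPM with DMSO, 26.3 with the ERK inhibitor, 27.1 with the ErbB2 inhibitor and 26.6 with the FGFR inhibitor. These 4 values lie close together, while the cycling cells read 197, 228, 195 and 203 CPM. The cycling level was 4.27, 6.08, 4.64 and 5.99 times the median of the other types in these libraries. In the mouse, suprabasal cells read 1.67 CPM of Tpx2 with PBS and 2.13 with FGF2/NRG1, and the cycling level was 27.6 and 23.2 times the median of the other types. Tpx2 was also the member with the lowest share of its UMIs in the cycling type in every spiny mouse library, between 31.7% and 42.1%.

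Ttk, the checkpoint kinase also called Mps1, showed the opposite pattern by species. The gene lies on chromosome 9 from 83834689 to 83872389. Mouse suprabasal keratinocytes read 29.4 CPM of Ttk with PBS (176 UMIs) and 26.7 with FGF2/NRG1 (113 UMIs), against 45.2 and 37.1 CPM in the cycling cells. Mouse basal keratinocytes had 0.632 and 1.29 CPM, from 3 and 4 UMIs. In the spiny mouse, suprabasal cells read between 2.27 and 4.26 CPM of Ttk and cycling cells between 49.1 and 79.3. Top2a, which untangles DNA, did not share this pattern, at 11.2 and 8.74 CPM in the mouse suprabasal cells against 924 and 857 CPM in the cycling ones. Smc4, a condensin subunit that compacts chromosomes, was the member with most UMIs in mouse endothelium (144 with PBS and 468 with FGF2/NRG1) and in mouse sebaceous gland (152 and 194), types that hold few dividing cells. Kif23, a motor of the central spindle, was highest outside the cycling cells in cluster 7 in 5 of the 6 libraries, at 45.1 CPM with DMSO (15 UMIs), 32.6 with the ErbB2 inhibitor (4 UMIs), 103 with the FGFR inhibitor (11 UMIs), 49.8 with PBS (27 UMIs) and 72.1 with FGF2/NRG1 (51 UMIs). With the ERK inhibitor it was highest in resident macrophages, at 90.04 CPM (37 UMIs). Kif23 gave 26.2% of the list's UMIs in cluster 7 with the FGFR inhibitor, so the level of that cluster rests in part on this gene.

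**Figure D3:**
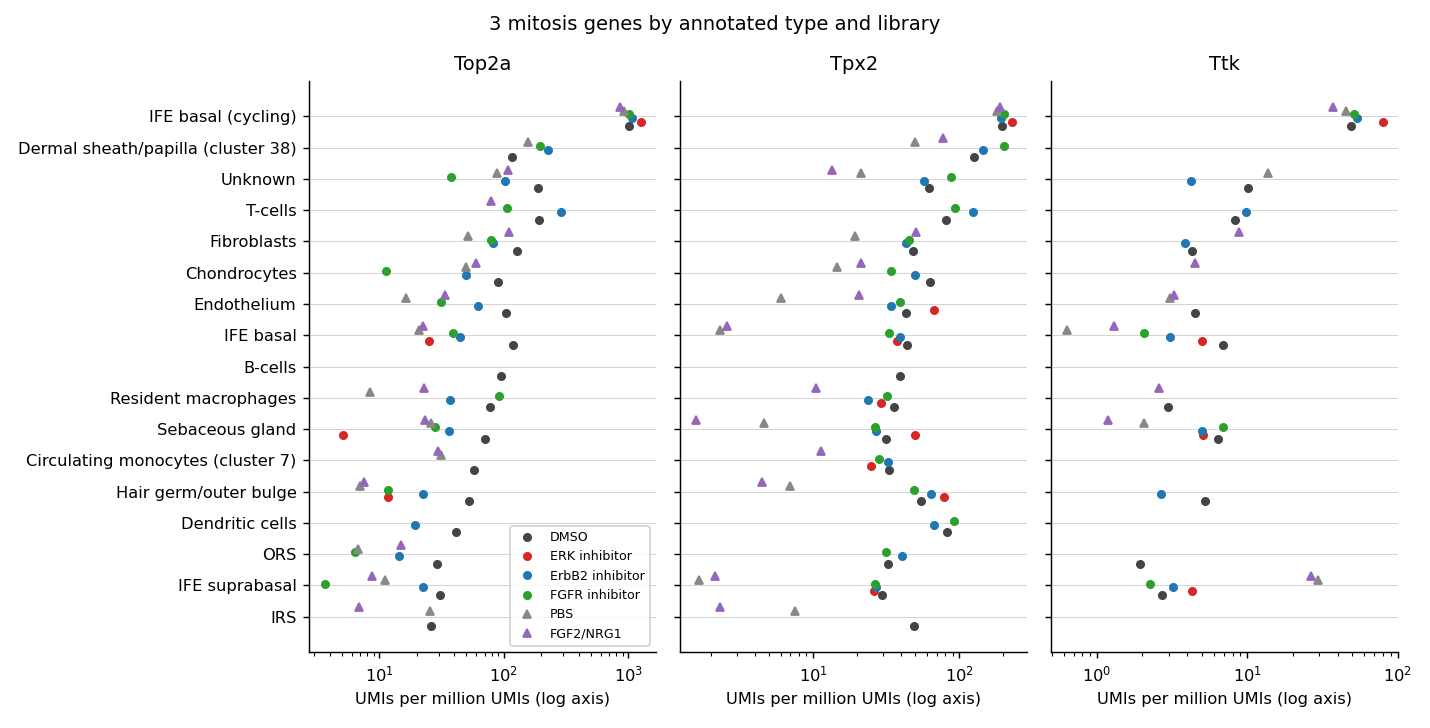
Levels of Top2a, Tpx2 and Ttk (CPM, log axis) by annotated type; circles are spiny mouse libraries and triangles mouse libraries, and a type with under 3 UMIs of the gene has no point. Tpx2 lies between 26.3 and 29.4 CPM in spiny mouse suprabasal keratinocytes and at 1.67 and 2.13 CPM in those of the mouse, and Ttk is at 29.4 and 26.7 CPM in mouse suprabasal keratinocytes.

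The comparison of each inhibitor with DMSO asks how the dividing cells of the regenerating ear differ when ERK signalling or a receptor upstream of it is blocked, and the bead comparison asks the same of added growth factors. Interfollicular keratinocytes carried 80.5% of the genes' UMIs with DMSO and between 58.7% and 87.2% in the other libraries, so the comparison was made there first. The summed level was 2698 CPM with DMSO, 1674 with the ERK inhibitor, 1465 with the ErbB2 inhibitor and 1770 with the FGFR inhibitor. On the log2 scale these are differences of −0.69 (−0.72 to −0.66), −0.88 and −0.61 from DMSO. With PBS the sum was 2291 CPM and with FGF2/NRG1 2733, a log2 difference of 0.25 (0.23 to 0.28). Counted gene by gene as at least 1.5-fold different, 28 of the 43 genes read were lower with the ERK inhibitor and 0 higher, with a median log2 ratio of −0.69, where 12.2% of 10995 genes were lower and 11.5% higher. The ErbB2 inhibitor library had 36 of 43 lower and 0 higher (median −0.84), against 12.8% of all genes lower and 6.1% higher. The FGFR inhibitor library had 21 of 43 lower and 0 higher (median −0.57), against 9.85% lower and 4.62% higher, and 32 of its 43 were lower in thinned cells or as a mean over cells. With FGF2/NRG1, 0 of 45 were higher and 0 lower (median 0.26), against 4.29% of all genes higher and 3.93% lower. The 3 inhibitor comparisons share the DMSO library, so their ratios are not independent of each other.

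Keratinocytes were also split into cells with and without at least 5 members; the split uses the genes themselves, so its values are a description. Keratinocytes with at least 5 members contributed 2025 CPM of the summed level with DMSO, 1398 with the ERK inhibitor, 1114 with the ErbB2 inhibitor and 1413 with the FGFR inhibitor. The remaining keratinocytes contributed 674, 272, 347 and 355 CPM. Both parts were thus lower in each inhibitor library than with DMSO: the log2 differences of the first part alone were −0.54, −0.86 and −0.52, a measure chosen after the data were seen. In the mouse the first part was 1937 CPM with PBS and 2379 with FGF2/NRG1, and the second 344 and 335. Within the annotated cycling cells the median member differed little, with median log2 ratios of −0.04, −0.09 and 0.05 for the ERK, ErbB2 and FGFR inhibitors and −0.04 for FGF2/NRG1. Recomputed with the control's mix of clusters in every library, the keratinocyte medians were −0.12, −0.13, −0.13 and 0.05. So weighted, the ERK inhibitor library had 5 members lower and 5 higher, and 0 were lower with the ErbB2 and FGFR inhibitors. Those clusters rest on the genes themselves, so this gives the part of the difference that lies within clusters and not between them.

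The 6 genes of chromosome structure hold the best known mark of dividing cells. Mki67, whose protein coats mitotic chromosomes, read 141 CPM with DMSO, 76.0 with the ERK inhibitor, 69.8 with the ErbB2 inhibitor and 95.4 with the FGFR inhibitor, and 145 with PBS and 195 with FGF2/NRG1. Its log2 ratios were −0.89 (−1.05 to −0.74), −1.02 and −0.57, and 0.43 (0.33 to 0.52) for the growth factors, among the 4 highest of that comparison. Top2a read 243 CPM with DMSO, 187 with the ERK inhibitor, 139 with the ErbB2 inhibitor and 147 with the FGFR inhibitor, then 179 with PBS and 209 with FGF2/NRG1. The interval of its ERK inhibitor ratio, −0.38 (−0.48 to −0.28), does not reach that of Mki67 in the same library, while the other ratios were −0.81, −0.72 and 0.22. Both genes were lowest with the ErbB2 inhibitor. The condensin subunits Smc2, Smc4, Ncapd2 and Ncapg, which fold chromosomes, were lower in all inhibitor libraries, from −1.17 (Ncapd2, ErbB2 inhibitor, 5.83 against 13.2 CPM) to −0.14 (Ncapg, ERK inhibitor, 11.7 against 13.1 CPM, interval −0.59 to 0.23). Ncapg was among the 4 highest with FGF2/NRG1, at 0.44 (14.6 against 10.8 CPM). Of this role 2 of 6 were at least 1.5-fold lower with the ERK inhibitor, 6 with the ErbB2 inhibitor and 1 with the FGFR inhibitor. The medians were −0.47, −0.85 and −0.53, and 0.29 for FGF2/NRG1. Beside this count and those of the other roles stand 12.2%, 12.8% and 9.85% of all genes lower, so 1 of 6 is read as no result.

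Cyclins and kinases drive entry into mitosis. Cdk1, the kinase that starts it, read 82.5 CPM with DMSO, 51.7 with the ERK inhibitor, 39.8 with the ErbB2 inhibitor and 57.7 with the FGFR inhibitor, and 62.8 with PBS and 81.2 with FGF2/NRG1. Its log2 ratios were −0.67, −1.05, −0.51 and 0.37 (0.23 to 0.52). Ccna2, a cyclin that partners Cdk1 and Cdk2, was at 145, 89.8, 69.1 and 94.1 CPM in the spiny mouse libraries in that order, and at 28.999 and 32.8 in the mouse. The B-type cyclins, the main partners of Cdk1, followed: Ccnb1 was at 63.0, 30.8, 29.1 and 39.8 CPM, with 44.2 and 51.5 in the mouse. Ccnb2 read 144, 65.5, 70.5 and 85.3 CPM, with 47.2 and 49.6 in the mouse. The cyclin ratios lay between −0.69 and −1.13 with the ERK inhibitor, between −1.03 and −1.11 with the ErbB2 inhibitor and between −0.63 and −0.75 with the FGFR inhibitor, and Ccnb1 was among the 4 lowest with the ErbB2 inhibitor. With FGF2/NRG1 they were 0.18, 0.22 and 0.07. Plk1, a kinase needed for spindle formation and exit, read 47.8 CPM with DMSO and 29.1, 26.2 and 33.0 with the inhibitors (−0.71, −0.87 and −0.53), and 17.5 and 19.98 in the mouse (0.19).

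Of the other kinases, Aurka, Aurkb and Ttk passed 1.5-fold in no comparison. Aurka, a centrosome kinase, read 10.6 CPM with DMSO, 9.21 with the ERK inhibitor (44 UMIs), 8.09 with the ErbB2 inhibitor and 7.64 with the FGFR inhibitor, and 12.7 and 16.0 in the mouse. None of its ratios, −0.18, −0.39, −0.47 and 0.34, passed 1.5-fold. Aurkb, the kinase of the passenger complex, had 119 UMIs with DMSO (2.65 CPM) and 17 with the ERK inhibitor (3.56 CPM), the highest ERK inhibitor ratio of the list at 0.49 (−0.40 to 1.16), with an interval that includes no difference. It was at 1.88 and 2.23 CPM with the ErbB2 and FGFR inhibitors (−0.49 and −0.24), and at 19.9 and 23.5 CPM in the mouse (0.24). Ttk came second with the ERK inhibitor at 0.30 (−0.09 to 0.63), from 15.5 against 12.8 CPM, and second lowest with FGF2/NRG1 at −0.07. Pbk, a mitotic kinase, was at −0.18, −0.80, −0.70 and 0.29, at least 1.5-fold lower with the ErbB2 and FGFR inhibitors. In all, 5 of the 9 cyclins and kinases were at least 1.5-fold lower with the ERK inhibitor, 6 with the ErbB2 inhibitor and 4 with the FGFR inhibitor, with medians of −0.67, −0.87 and −0.55, and 0.22 with FGF2/NRG1.

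Centromere and kinetochore genes, which tie chromosomes to the spindle, were lower in the inhibitor libraries nearly without exception. Cenpf, a large kinetochore protein, read 185 CPM with DMSO, 105 with the ERK inhibitor, 96.3 with the ErbB2 inhibitor and 122 with the FGFR inhibitor, and 152 with PBS and 193 with FGF2/NRG1. Its log2 ratios were −0.81, −0.94, −0.60 and 0.35. Cenpa, the histone variant that marks centromeres, read 16.2, 6.07, 9.02 and 9.30 CPM, and 89.3 and 111 in the mouse. Its ERK inhibitor ratio, −1.37 (−2.00 to −0.88), was the lowest of the list there and rests on 29 UMIs, and it was at −0.84, −0.79 and 0.32 in the other comparisons. Birc5, or survivin, a passenger complex subunit, read 78.5, 48.3, 46.0 and 57.0 CPM, then 72.7 and 98.8 in the mouse, with ratios of −0.69, −0.77, −0.46 and 0.44. It was thus the highest of the list with FGF2/NRG1 and among the 4 least lowered with the FGFR inhibitor. Nuf2, of the Ndc80 complex that grips microtubules, was among the 4 lowest with the FGFR inhibitor (−0.79, 28.1 against 48.6 CPM). Cenpe, Ndc80 and Spc25 lay between −1.08 and −0.26 in the inhibitor libraries and between 0.18 and 0.40 with FGF2/NRG1. Of the 7 genes read, 6 were at least 1.5-fold lower with the ERK inhibitor, 7 with the ErbB2 inhibitor and 5 with the FGFR inhibitor, with medians of −0.92, −0.84 and −0.62. Over all 8 in the mouse the median was 0.32.

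The spindle checkpoint holds a cell until every chromosome is attached, and its genes were counted at lower depth. Bub1, a checkpoint kinase, read 18.0 CPM with DMSO, 11.5 with the ERK inhibitor, 9.78 with the ErbB2 inhibitor and 11.5 with the FGFR inhibitor, then 10.6 and 12.98 in the mouse, with ratios of −0.62, −0.88, −0.65 and 0.30. Bub1b (BubR1), which blocks the exit machinery, was the lowest of the list with the FGFR inhibitor at −0.89 (−1.09 to −0.69), from 11.6 against 21.5 CPM. Mad2l1, another part of that block, read 28.2, 20.5, 21.9 and 18.9 CPM, and 15.6 and 18.4 in the mouse, and passed 1.5-fold in no comparison (−0.45, −0.37, −0.57 and 0.25). It was among the 4 least lowered with the ErbB2 inhibitor.

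The 3 genes of mitotic exit had the lowest median of any role with the ERK and ErbB2 inhibitors, −1.19 in both, with all 3 genes at least 1.5-fold lower. Cdc20, which directs the destruction machinery once chromosomes are attached, read 104 CPM with DMSO, 44.8 with the ERK inhibitor, 44.7 with the ErbB2 inhibitor and 66.5 with the FGFR inhibitor. Its ratios were −1.21 (−1.42 to −1.02), −1.22 (−1.30 to −1.14) and −0.65. Ube2c, the enzyme that loads ubiquitin for that machinery, read 99.3, 43.3, 43.5 and 68.0 CPM, with ratios of −1.19 (−1.40 to −0.99), −1.19 (−1.27 to −1.11) and −0.54. Both are among the 4 lowest genes with the ERK inhibitor and with the ErbB2 inhibitor, and neither is with the FGFR inhibitor. Cdca3, a trigger of mitotic entry that is destroyed at exit, was at −0.77, −0.94 and −0.74. In the mouse, Cdc20 read 68.3 and 75.5 CPM (0.14) and Ube2c 140 and 149 CPM (0.09), so the median of the role, 0.14, was lower than that of 5 of the other roles there.

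Among the spindle genes, Tpx2 read 65.7 CPM with DMSO, 59.0 with the ERK inhibitor, 48.8 with the ErbB2 inhibitor and 51.7 with the FGFR inhibitor, ratios of −0.15, −0.43 and −0.35 that are among the 4 least lowered with the ErbB2 and FGFR inhibitors. Its level outside dividing cells, given above, is part of these sums. In the mouse it read 33.4 and 43.9 CPM (0.40). Kif11, the motor that pushes the spindle poles apart, read 43.5, 27.8, 21.9 and 28.2 CPM, with ratios of −0.63, −0.99 and −0.63, and 31.7 and 34.4 in the mouse (0.12). Kif2c, a microtubule destroyer at centromeres, was among the 4 lowest with the ERK inhibitor at −1.19 (−1.84 to −0.70), from 28 UMIs. Nusap1, which bundles microtubules around chromosomes, read 67.0, 56.7, 51.7 and 39.2 CPM: it was among the 4 least lowered with the ErbB2 inhibitor (−0.37) and among the 4 lowest with the FGFR inhibitor (−0.77). Its interval with the FGFR inhibitor, −0.88 to −0.66, does not overlap that with the ERK inhibitor, −0.42 to −0.06. Ckap2l, a spindle protein, was among the 4 highest with FGF2/NRG1 at 0.44 (62.6 against 46.3 CPM), and Nusap1 among the 4 lowest at 0.04. Kif22, Hmmr and Ckap2 lay between −0.95 and −0.43 in the inhibitor libraries, and Tacc3, read in the mouse only, was at 0.40. Of the 8 spindle genes read in the spiny mouse, 5, 6 and 3 were at least 1.5-fold lower with the ERK, ErbB2 and FGFR inhibitors.

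The last 7 genes build the central spindle and cut the cell in 2. Prc1, which cross-links the central spindle, read 123 CPM with DMSO, 73.2 with the ERK inhibitor, 69.8 with the ErbB2 inhibitor and 76.3 with the FGFR inhibitor, then 119 with PBS and 137 with FGF2/NRG1. Its log2 ratios were −0.74, −0.81, −0.69 and 0.20. Anln, a scaffold of the cleavage ring, read 13.5, 8.37, 8.01 and 8.95 CPM, with 62.5 and 65.4 in the mouse, ratios of −0.66, −0.75, −0.59 and 0.07. Kif20a, a motor of the central spindle, read 38.3, 23.2, 18.5 and 22.9 CPM, with 16.1 and 16.8 in the mouse, ratios of −0.71, −1.05, −0.74 and 0.06. All 3 genes were at least 1.5-fold lower in each inhibitor library. Kif23, another such motor, was among the 4 lowest with FGF2/NRG1 at 0.06. Ect2, which switches on the ring, was the lowest there at −0.19 (−0.51 to 0.11), with an interval that includes no difference. Racgap1, its partner at the central spindle, was among the 4 least lowered with the ERK inhibitor (−0.07, interval −0.39 to 0.21) and the FGFR inhibitor (−0.43). Kif20b, a further kinesin, was at −0.74, −0.86, −0.47 and 0.34. Of the 7 genes, 5 were at least 1.5-fold lower with the ERK inhibitor, 6 with the ErbB2 inhibitor and 4 with the FGFR inhibitor, with medians of −0.66, −0.81 and −0.59. The plot of ratios by member shows that nearly all points of the inhibitor panels lie left of 0, and that most of the bead panel lies between 0 and the 1.5-fold line.

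**Figure D4:**
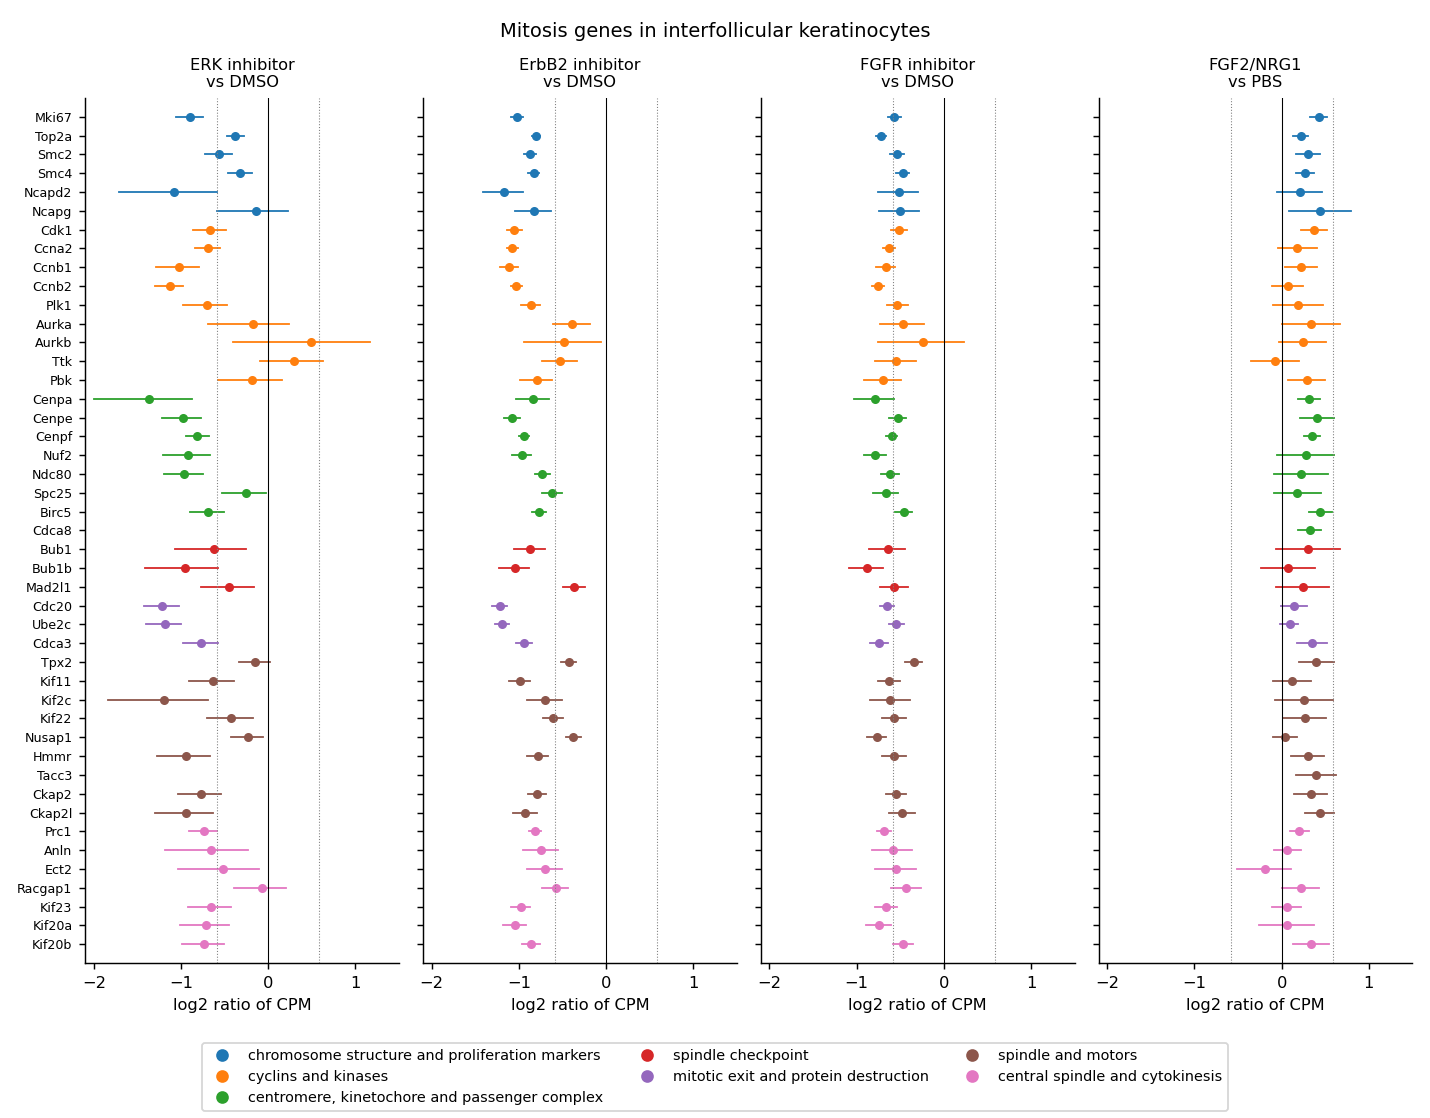
Log2 ratio of treated over control CPM for each of the 45 genes in interfollicular keratinocytes, 1 panel per comparison, coloured by role. Bars are exact conditional 95% intervals that cover counting error only, and dotted lines mark 1.5-fold; 28, 36 and 21 genes lie beyond the left line with the ERK, ErbB2 and FGFR inhibitors and 0 beyond either line with FGF2/NRG1.

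The keratinocytes with at least 10 members, nearly all of them annotated as cycling, were then compared for which mitosis genes they carry, as a share of their UMIs of the 45 genes. There were 520 such cells with DMSO, 15 with the ERK inhibitor, 164 with the ErbB2 inhibitor, 113 with the FGFR inhibitor, 85 with PBS and 80 with FGF2/NRG1, with 14649 to 18342 CPM of the list within them. Exit genes made up 11.7% of the list's UMIs in these cells with DMSO, 8.59% with the ERK inhibitor, 10.2% with the ErbB2 inhibitor and 11.7% with the FGFR inhibitor. Chromosome structure genes made up 21.6% with DMSO and 25.04% with the ERK inhibitor. Ube2c alone gave 4.33% with DMSO and 2.41% with the ERK inhibitor, a log2 ratio of −0.83, and 3.40% with the ErbB2 inhibitor (−0.35, interval −0.46 to −0.24). Top2a gave 9.38% with DMSO and 11.5% with the ERK inhibitor (0.30, interval 0.17 to 0.42). The ERK inhibitor values rest on 15 cells, with a median of 27688 UMIs each against 4686.5 with DMSO. Nusap1 had a larger share with the ErbB2 inhibitor, 4.05% against 2.93% (0.47, interval 0.35 to 0.58). In the mouse, Mki67 gave 6.84% with FGF2/NRG1 and 5.92% with PBS, and Ube2c 6.47% and 7.41%.

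Other genes of the cell cycle, in lists chosen with earlier results of these data known, gave the following in the same keratinocytes. Of 54 further G2 and mitosis genes, 23 of the 51 read were at least 1.5-fold lower with the ERK inhibitor, 38 with the ErbB2 inhibitor and 23 with the FGFR inhibitor, and 0 higher in each, with medians of −0.56, −0.75 and −0.57. Over all genes 12.2%, 12.8% and 9.85% were lower with these inhibitors. With FGF2/NRG1, 4 of 54 were higher and 0 lower (median 0.23), against 4.29% and 3.93% of all genes. The most abundant of the 54 did not all follow. Tubb4b, a tubulin of many cell types, read 834 CPM with DMSO and 971 with the ERK inhibitor (0.22). It read 490 with the ErbB2 inhibitor (−0.77) and 928 with the FGFR inhibitor (0.15). Hmgb2, a chromatin protein abundant in dividing cells, read 827, 588, 465 and 642 CPM, and 405 with PBS and 507 with FGF2/NRG1. Tuba1c was at 0.51, −0.66 and 0.06 with the ERK, ErbB2 and FGFR inhibitors and at −0.39 with FGF2/NRG1.

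Of 34 DNA replication genes, which act before mitosis, 9 were at least 1.5-fold lower with the ERK inhibitor, 22 with the ErbB2 inhibitor and 21 with the FGFR inhibitor, with 0 higher in each and medians of −0.38, −0.67 and −0.68. Over all genes 12.2%, 12.8% and 9.85% were lower with these inhibitors. With FGF2/NRG1, 3 were higher and 0 lower (median 0.24), against 4.29% and 3.93% of all genes. Lig1, a DNA ligase, read 165 CPM with DMSO, 106 with the ERK inhibitor, 107 with the ErbB2 inhibitor and 110 with the FGFR inhibitor. Tk1, which makes thymidine nucleotides, read 151, 97.1, 84.5 and 88.9 CPM, Dut 147, 109, 80.8 and 86.0, and Pcna, the replication clamp, 136, 105, 79.4 and 90.4. With the ERK inhibitor the replication genes thus had a higher median than the mitosis genes, and with the FGFR inhibitor a lower one. Pcna read 105 CPM with PBS and 108 with FGF2/NRG1.

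Regulators that switch mitosis genes on or off gave 2 of 9 genes lower with the ERK inhibitor, 3 of 10 with the ErbB2 inhibitor, 2 of 10 with the FGFR inhibitor, and 1 of 12 higher with FGF2/NRG1, against 12.2%, 12.8%, 9.85% and 4.29% of all genes. Their medians were −0.27, −0.36, −0.28 and 0.28. Foxm1, a transcription factor of G2 genes, read 12.98 CPM with DMSO, 7.32 with the ERK inhibitor (−0.79, 35 UMIs), 6.34 with the ErbB2 inhibitor (−1.03) and 9.17 with the FGFR inhibitor (−0.50). E2f1, which drives entry into S phase, read 14.1, 14.9, 8.35 and 10.9 CPM, so it was lower with the ErbB2 inhibitor (−0.75) and level with DMSO in the ERK inhibitor library (0.10, interval −0.29 to 0.44). Growth arrest genes were mixed: with the ERK inhibitor 4 of 10 were at least 1.5-fold higher and 1 lower, against 11.5% and 12.2% of all genes. Those higher were Cdkn2a (1.28), Cdkn1a (1.06), Cdkn2b (0.90) and Btg1 (0.85, 196 against 109 CPM), the first 3 inhibitors of cyclin-dependent kinases, named after their values were seen. The 1 lower was Cdkn1c (−0.98), a further inhibitor of these kinases, also named after its value was seen. The ErbB2 inhibitor library had 1 of 10 higher and 0 lower, the FGFR inhibitor library 1 higher and 1 lower, and the FGF2/NRG1 library 0 of 9 higher and 1 lower. Over all genes 6.1% were higher with the ErbB2 inhibitor, 4.62% higher and 9.85% lower with the FGFR inhibitor and 3.93% lower with FGF2/NRG1, so counts of 1 gene are read as no result.

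Outside the epidermis, several types read higher with FGF2/NRG1 than with PBS. Annotated fibroblasts read 2112 CPM of the mitosis genes with FGF2/NRG1 and 895 with PBS, and 36 of the 41 genes read were at least 1.5-fold higher (median 1.16), where 13.5% of all genes were higher. The annotated type joins 2 clusters in different parts: cluster 32, led by collagen genes, had 153 of the 219 cells with FGF2/NRG1 and 32 of the 80 with PBS. Within cluster 32 alone the level was 2340 CPM (2272 to 2410) against 1116 (977 to 1269), with 24 of 41 genes higher and 1 lower (median 0.77), against 17.8% of all genes higher and 29.1% lower. Cenpf there read 174 against 57.5 CPM (1.49, interval 0.77 to 2.56), Mki67 153 against 19.2 CPM (2.68, interval 1.63 to 4.89, from 291 and 4 UMIs), and Smc4 129 against 86.2 CPM (0.51, interval −0.11 to 1.36). At least 3 members were found in 24 of the 153 thinned cells, 15.7% (10.3 to 22.4), and in 1 of 29 with PBS, 3.45% (0.0873 to 17.8), so the intervals overlap. Without the 1% of cells with most UMIs the log2 difference of cluster 32 was 0.61 in place of 1.07, and as a mean over cells it was 1.34. With PBS, 1 cell with at least 5 members held 62.1% of the list's UMIs in the cluster's 29 cells deep enough to be thinned. With FGF2/NRG1, 14 such cells of 153 held 71.4%. All 14 had more fibroblast marker UMIs than keratinocyte marker UMIs. The pool of the cluster's other FGF2/NRG1 cells did too, at 1.81% against 0.217% of UMIs, so the count does not set the 14 apart. The fibroblast markers of cluster 32 differed too, at 1.71% of its UMIs with FGF2/NRG1 and 7.35% with PBS, as did depth, with medians of 10170 and 4445 UMIs in its cells with fewer than 5 members. Their part in the difference was not tested.

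Vessel cells showed a difference in the same direction. Annotated endothelium read 841 CPM with FGF2/NRG1 and 479 with PBS, with 23 of 37 genes at least 1.5-fold higher (median 0.84), against 4.41% of all genes higher. Its cluster 29 read 1611 against 747 CPM, with 25 of 30 genes higher (median 1.23), against 6.97% of all genes. In that cluster Birc5 read 111 against 42.1 CPM (1.34, interval 0.75 to 2.10), Mki67 107 against 51.7 CPM (1.01, interval 0.47 to 1.69) and Smc4 113 against 111 CPM (0.00). Among its cells deep enough to be thinned, 1 of 72 with PBS had at least 5 members and held 47.3% of the list's UMIs. With FGF2/NRG1, 19 of 231 had at least 5 members and held 63.0%. All 19 had more endothelial than keratinocyte marker UMIs. The pool of the cluster's other FGF2/NRG1 cells did too, at 0.538% against 0.277% of UMIs, so the count does not set the 19 apart. Chondrocytes, the cartilage cells of the ear, read 825 against 532 CPM, with 18 of 31 genes higher and 2 lower (median 0.77), against 13.8% of all genes higher and 26.6% lower, from 248 and 36 cells. Cluster 6, annotated as resident macrophages, read 442 (417 to 468) against 229 (195 to 267) CPM, with 10 of 17 genes higher and 1 lower (median 1.06), against 11.4% of all genes higher and 9.33% lower. Both values of cluster 6 lie below those of cluster 7 in the same libraries. As a mean over cells the log2 difference of cluster 6 was 0.43 in place of 0.95. With FGF2/NRG1, 3 cells with at least 5 members held 44.9% of the list's UMIs in its 558 cells deep enough to be thinned. In the inner root sheath of the hair the direction was the reverse: 8 of 11 genes were lower (median −0.94, 161 against 384 CPM), against 8.8% of all genes lower. Cenpf read 6.90 against 34.2 CPM and Mki67 9.97 against 21.2 CPM there.

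In the spiny mouse, several other types read lower with the inhibitors than with DMSO. Chondrocytes were at 1451 CPM with DMSO, 535 with the ErbB2 inhibitor and 340 with the FGFR inhibitor, with 22 of 24 genes lower (median −1.54, 10.6% of all genes lower) and 23 of 24 lower (median −1.98, 11.7% of all genes lower). Top2a in them read 89.3, 49.8 and 11.3 CPM, while Smc4 read 77.7, 80.2 and 70.8. The endothelial cluster 29 was at 2159 CPM with DMSO, 1431 with the ErbB2 inhibitor (12 of 27 genes lower and 1 higher, median −0.47, against 8.91% and 12.4% of all genes) and 987 with the FGFR inhibitor (19 of 26 lower, median −1.004, 9.2% of all genes lower). Sebaceous gland cells were at 792 CPM with DMSO and 247 with the ERK inhibitor, with 33 of 38 genes lower (median −1.67, 9.69% of all genes lower), from 66 cells with the ERK inhibitor. Keratinocyte marker genes were lower with the level of the mitosis genes in chondrocytes and, with the ERK inhibitor, in sebaceous gland cells. In cluster 29 this held with the FGFR inhibitor only. The markers held 3.12% of chondrocyte UMIs with DMSO, 2.23% with the ErbB2 inhibitor and 1.12% with the FGFR inhibitor. In cluster 29 they held 1.77%, 1.88% and 0.856%. In sebaceous gland cells they held 1.47% with DMSO and 0.340% with the ERK inhibitor. Of the DMSO cells with at least 5 members, 0 of 7 chondrocytes and 0 of 22 cells of cluster 29 had more own than keratinocyte markers. In cluster 32, 5 of 11 did. In chondrocytes and cluster 29 the count does not set such cells apart. Pooled cells with fewer members read 3.15% keratinocyte and 0.451% own markers in chondrocytes, and 1.81% and 0.386% in cluster 29. Those with at least 5 read 2.31% and 0.333%, and 1.26% and 0.233%. In cluster 32 they read 3.54% and 2.92%, against 2.38% and 3.90% in its other cells. What part keratinocyte RNA has in the DMSO levels was not tested.

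Some spiny mouse types were lower with one inhibitor and level or higher with another. Cluster 32 was at 1698 CPM with DMSO, 1304 with the ErbB2 inhibitor (6 of 30 genes lower and 1 higher, median −0.43, against 8.08% and 11.6% of all genes) and 1691 with the FGFR inhibitor (2 of 26 lower and 2 higher, median −0.02, against 9.3% and 11.9% of all genes). Cells with at least 5 members there had more fibroblast than keratinocyte marker UMIs in 8 of 8 cases with the ErbB2 inhibitor and 4 of 4 with the FGFR inhibitor. The pooled other cells of the cluster did too, at 4.34% against 1.29% and 4.35% against 1.60% of UMIs. Cluster 6 read 1012 CPM with DMSO, 487 with the ERK inhibitor, 566 with the ErbB2 inhibitor and 1426 with the FGFR inhibitor, where 13 of 26 genes were higher (median 0.51, 14.6% of all genes higher). Its 6 FGFR inhibitor cells with at least 5 members held 66.3% of the list's UMIs in 111 cells deep enough to be thinned. As a mean over cells the FGFR inhibitor difference was 0.32 in place of 0.50 on the log2 scale. Of the 6 cells, 1 had more own than keratinocyte markers. Pooled, those 6 cells read 0.679% own and 0.536% keratinocyte markers. The other thinned cells of the cluster read 0.928% and 1.22%. T cells were higher with the ErbB2 inhibitor, at 2432 against 2007 CPM, with 6 of 23 genes higher (median 0.35, 12.2% of all genes higher), and Top2a read 288 against 191 CPM. There 6 cells with at least 5 members held 69.1% of the list's UMIs in cells deep enough to be thinned. Of the 6, 0 had more T cell than keratinocyte marker UMIs, a count that does not set them apart. Pooled, they read 0.845% keratinocyte and 0.318% T cell markers, and the other thinned T cells 2.70% and 0.512%. As a mean over cells the T cell difference changed sign, from 0.28 to −0.41 on the log2 scale. That of cluster 38 changed from 0.31 to −0.72 with the FGFR inhibitor and from 0.09 to −0.85 with the ErbB2 inhibitor. Cluster 32 was at 0.56 with the FGFR inhibitor as a mean over cells, in place of −0.01. The plot of medians by type shows these exceptions beside the many types that lie to the left.

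**Figure D5:**
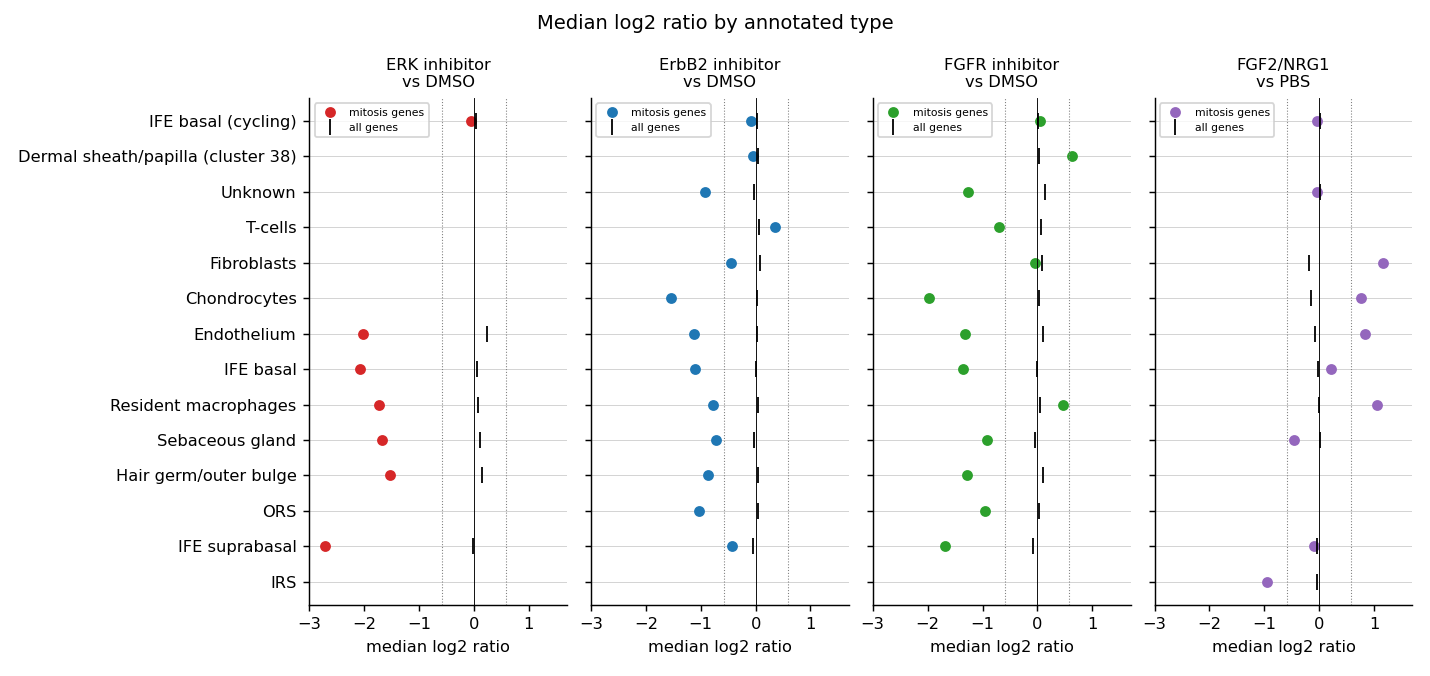
Median log2 ratio of the mitosis genes (points) and of all genes (black ticks) in each annotated type with at least 30 cells in both libraries and enough UMIs, 1 panel per comparison; dotted lines mark 1.5-fold. The median is −1.98 in chondrocytes with the FGFR inhibitor and 1.16 in fibroblasts with FGF2/NRG1, and it lies near 0 in the cycling keratinocytes of all comparisons.

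Over all cells of a library the level of the genes also depends on which types it holds. With the types of each library as found, the log2 difference from DMSO was −0.80 with the ERK inhibitor, −0.84 with the ErbB2 inhibitor and −0.61 with the FGFR inhibitor, and recomputed with the type mix of DMSO it was −0.49, −0.32 and −0.26. The mix includes the cycling type, which the genes themselves define. In the mouse the difference was −0.19 as found and 0.00 with the mix of PBS. There the interfollicular keratinocytes made up 34.2% of cells with PBS and 19.1% with FGF2/NRG1, so the summed level over all cells was lower with FGF2/NRG1, 1370 against 1559 CPM, while within keratinocytes it was higher.

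Last, the genes whose level by type and library was most like the summed level of the list were ranked, as a description over 56 units of type and library in the spiny mouse and 31 in the mouse, which share libraries and depth. In the spiny mouse they were Dlgap5 (Pearson r = 0.952), Pttg1 (0.9503), Spc24 (0.948), Asf1b (0.936), Sgo2a (0.928), Cdkn3 (0.927), Arhgap11a (0.920), Cenpw (0.915), Cdca2 (0.914) and Knstrn (0.912). In the mouse they were Pclaf (0.952), Knl1 (0.934), Pttg1 (0.922), Kif4 (0.918), Rrm2 (0.917), Incenp (0.911), Plk4 (0.904), Sgo2a (0.903) and Dbf4 (0.8997). Without the cycling keratinocytes these values lay between 0.816 and 0.925 in the spiny mouse and between 0.725 and 0.887 in the mouse.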

How the data were processed

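Cells freed from the ear by protease and Dounce treatment went into 10x Genomics Chromium 3' libraries, per the labels' protocols. Cell Ranger 6.1.1 and the mouse build GRCm38 (mm10) are named in the submitters' processing notes; how cells were filtered, and whether spiny mouse reads were aligned to this build, was not given in the sources used here. One deposited table held raw UMI counts by gene and by cell, and a second held each cell's library, cluster and cell type. UMIs were summed per library and type and scaled to CPM. Log2 ratios had 1 UMI added to each count, for genes with at least 30 UMIs over both libraries, in units of at least 30 cells. No doublet caller was run; an alternative left out the 1% of cells with most UMIs. In 12 of 47 clusters the 10 leading genes held more markers of another type than of their own. The 4 interfollicular ones among them were left out of keratinocytes, and clusters 7 and 38 are named by number. The others stayed within their annotated types: cluster 17 in endothelium, 18 in sebaceous gland, 45 in resident macrophages, and 3, 14 and 23 in Unknown. Intervals are exact Poisson, conditional binomial or Clopper-Pearson (95%). Scripts (Python 3.11.15, numpy 2.4.6, scipy 1.17.1, pandas 2.3.3) were tested on simulated data. The members and lists were chosen with earlier results of these data known. The rule for named genes took a core set of 21 members, the 4 highest and 4 lowest keratinocyte ratios per comparison, the 3 members with most UMIs in other types, up to 4 genes of each other list by UMIs and the 10 most like genes per species, of which 1 is not reported here; genes named outside it are marked. Depth per library is given in the report; the smaller the unit, the wider its intervals.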

Additional observations from a re-analysis of the deposited data

Results flagged for a closer look

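In a pair of comparisons, types of the same library differed from their control in opposite directions, each as a median log2 ratio over the genes read there; neither difference was tested, since each group is 1 library. With the FGFR inhibitor against DMSO, the median was 0.64 in cluster 38 (12 genes, 59 and 99 cells) and −1.98 in chondrocytes (24 genes, 85 and 298 cells), a difference of 2.62. The sum in cluster 38 changed sign as a mean over cells, to −0.72, and 2 of its 45 cells with at least 1000 UMIs held 86.5% of their UMIs of the list with the FGFR inhibitor. With FGF2/NRG1 against PBS, the median was 1.16 in annotated fibroblasts (41 genes) and −0.94 in the inner root sheath (11 genes), a difference of 2.10.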

How the results depend on the processing

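No paired analysis was possible because each group is 1 library. In the order ERK, ErbB2, FGFR inhibitor and FGF2/NRG1, the keratinocyte medians (−0.69, −0.84, −0.57, 0.26) were −0.12, −0.13, −0.13 and 0.047 with the control's mix of clusters. With thinned cells and no pseudocount the FGFR and FGF2/NRG1 medians were −0.71 and 0.13; as a mean over cells the latter was 0.20, and without the 1% of cells with most UMIs 0.37. The log2 ratios of the share with at least 3 members (−1.13, −1.16, −1.02, 0.18) were −0.13, −0.68, −0.49 and −0.23 without thinning, so that of FGF2/NRG1 changed sign, and −0.24, −0.93 and −0.47 for at least 10 members, chosen after seeing the data. The summed level (−0.69, −0.88, −0.61, 0.25) was −0.74, −0.84, −0.59 and 0.39 without the 1% of cells with most UMIs, −0.92, −0.66 and 0.16 for ErbB2, FGFR and FGF2/NRG1 as a mean over cells, and −0.54, −0.86, −0.52 and 0.30 from cells with at least 5 members alone, added after seeing the data. Over all cells with the control's mix (−0.49, −0.32, 0.00 for ERK, ErbB2 and FGF2/NRG1), clusters in place of types gave −0.30, −0.26 and 0.056. Of the single-gene values under all alternatives, 1091 stayed within counting error, 292 moved beyond it and 8 changed sign: Kif20a with the ERK inhibitor was at 0.17 in thinned cells, and with the control's mix of clusters Ndc80, Bub1b, Kif11, Prc1, Anln and Kif23 were at 0.022, 0.28, 0.0084, 0.039, 0.61 and 0.013 with the ERK inhibitor and Kif22 at 0.10 with the ErbB2 inhibitor. The cause was not tested. At 2-fold, 7, 11 and 0 members were lower with the ERK, ErbB2 and FGFR inhibitors. With thinned cells 6 were higher and 2 lower with FGF2/NRG1, and as a mean over cells 3 were higher, where the main count was 0. The mix of clusters left 5, 0 and 0 lower, with 5 higher for the ERK inhibitor. Requiring at least 10 or 100 UMIs gave the same medians. The ERK inhibitor library, with 631 cells, limits every comparison that uses it.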
